A study of Homo sapiens with 12 samples.

Results

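The genes described here are the cyclins and cyclin-dependent kinases (CDKs) that take a cell through the G1 phase, with the inhibitor p27 and the retinoblastoma protein RB. They are CCND1, CCND2, CCND3, CDK4, CDK6, CCNE1, CCNE2, CDK2, CDKN1B and RB1. They were taken by gene name from the deposited count table, where these 10 names are 10 of 64253 genes, and 9 of the 10 had enough reads to be tested, among 19460 genes tested in all. The libraries came from JEKO-1, an established human mantle cell lymphoma line. Cells were treated for 48 h with DMSO as control, with choline salicylate (CS, a non-acetylated salicylate), with KPT-330 (selinexor, which blocks the nuclear exporter XPO1), or with KPT-330 plus CS, called the combination below. Each of the 4 groups had 3 libraries, all of 1 cell line. Neither the doses these cells received nor the origin of the replicates (separate cultures or not) was stated in the labels used, so a p-value here measures library-to-library spread alone, and that spread may be technical.

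In G1, mitogen signals raise the D-type cyclins, which bind and activate CDK4 or CDK6. These kinases phosphorylate RB, which then releases E2F transcription factors, and E2F induces the E-type cyclins, which activate CDK2 and complete the phosphorylation of RB. The protein p27, encoded by CDKN1B, binds and inhibits cyclin E-CDK2. Mantle cell lymphoma is known for the t(11;14) translocation, which places CCND1 on chromosome 11 next to the immunoglobulin heavy chain enhancers, so that a B cell, which normally relies on cyclins D2 and D3, expresses cyclin D1. XPO1 exports proteins and some mRNAs from the nucleus, among them CCND1 mRNA bound to EIF4E.

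The libraries held 35325563 to 59490178 counted reads. All 8 B cell markers examined were detected, with summed levels of 1876 to 1889 CPM (reads scaled to the size of the library) in DMSO, 2151 to 2255 CPM in CS, 2483 to 2504 CPM with KPT-330 and 2592 to 2656 CPM with the combination. Of 7 T cell markers, CD2, CD3D, CD3E, CD3G and CD4 were under 1 CPM in every library, and the list summed to 11.5 to 12.7 CPM in DMSO, 8.21 to 9.53 CPM in CS, 19.7 to 21.7 CPM with KPT-330 and 4.8 to 6.17 CPM with the combination. With KPT-330 5 of the 5 tested T cell markers were higher than in DMSO. CD3G, among them, had 0.121 to 0.147 CPM in DMSO and 0.317 to 0.533 CPM with KPT-330. It had enough reads to be tested only through KPT-330 and the combination, where it was high. Over all tested genes 24.7% were higher and 23.8% lower in that comparison. Of 6 myeloid markers 4 were under 1 CPM throughout, and the list summed to 3.35 to 5.46 CPM in DMSO, 2.51 to 2.62 CPM in CS, 2.18 to 2.4 CPM with KPT-330 and 2.38 to 2.49 CPM with the combination. Of 5 epithelial markers 3 were under 1 CPM throughout, with 1 at 0, and the list summed to 0.611 to 0.965 CPM in DMSO, 0.756 to 0.874 CPM in CS, 2.4 to 3.34 CPM with KPT-330 and 1.71 to 2.35 CPM with the combination. The other lists also moved with KPT-330 against DMSO. There 5 of 8 B cell and 2 of 2 tested epithelial markers were higher, and 3 of 4 tested myeloid markers were lower. Among the myeloid markers, CD14 had enough reads to be tested only through DMSO and CS, where it was high. The part of these markers in the results below was not tested. XPO1 itself, the target of KPT-330, averaged 845 CPM in DMSO and 1575 CPM with KPT-330, a log2 fold change of 0.90 ± 0.07 (SE, adjusted p = 7.64e-07). A property of the libraries moved with several of the values below. The slope of log2 CPM against the GC content of the transcripts, taken per library against the mean of all 12 libraries and per 10 points of GC, ran from -0.314 to 0.087 in DMSO, from -0.229 to 0.059 in CS and from -0.15 to 0.128 with the combination, but only from 0.195 to 0.228 with KPT-330. Reads of mitochondrial ribosomal RNA made up 1.05 to 1.25% of the total in DMSO, 1.41 to 1.46% with KPT-330 and 2.52 to 2.75% with the combination. In bulk RNA, fewer cells of a type and less RNA per cell cannot be told apart.

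Per kilobase of gene model, CDK4 had the highest level of these genes in all 4 groups and CCND1 the next highest. In DMSO, CDK4 stood at 242 ± 25.5 CPM per kb (SD, n = 3) and CCND1 at 88.9 ± 29.8 CPM per kb. RB1 followed at 46.8 ± 5.75 CPM per kb, then CDK2 at 31.4 ± 1.08 and CDKN1B at 22.1 ± 1.70 CPM per kb. CCNE1 (5.16 ± 0.628 CPM per kb), CCND3 (2.94 ± 0.428 CPM per kb) and CCNE2 (2.43 ± 0.388 CPM per kb) formed a lower tier, and CCND2 was lowest of the tested genes at 0.285 ± 0.0361 CPM per kb. In DMSO the libraries of each gene lay apart from those of the next gene in this order, except that CCND3 and CCNE2 overlapped. The order changed within the lower tier only. With KPT-330, CCNE2 stood at 4.77 ± 0.302 CPM per kb, above CCND3 at 3.59 ± 0.00733 and overlapping CCNE1 at 5.22 ± 0.220 CPM per kb.

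**Figure D1:**
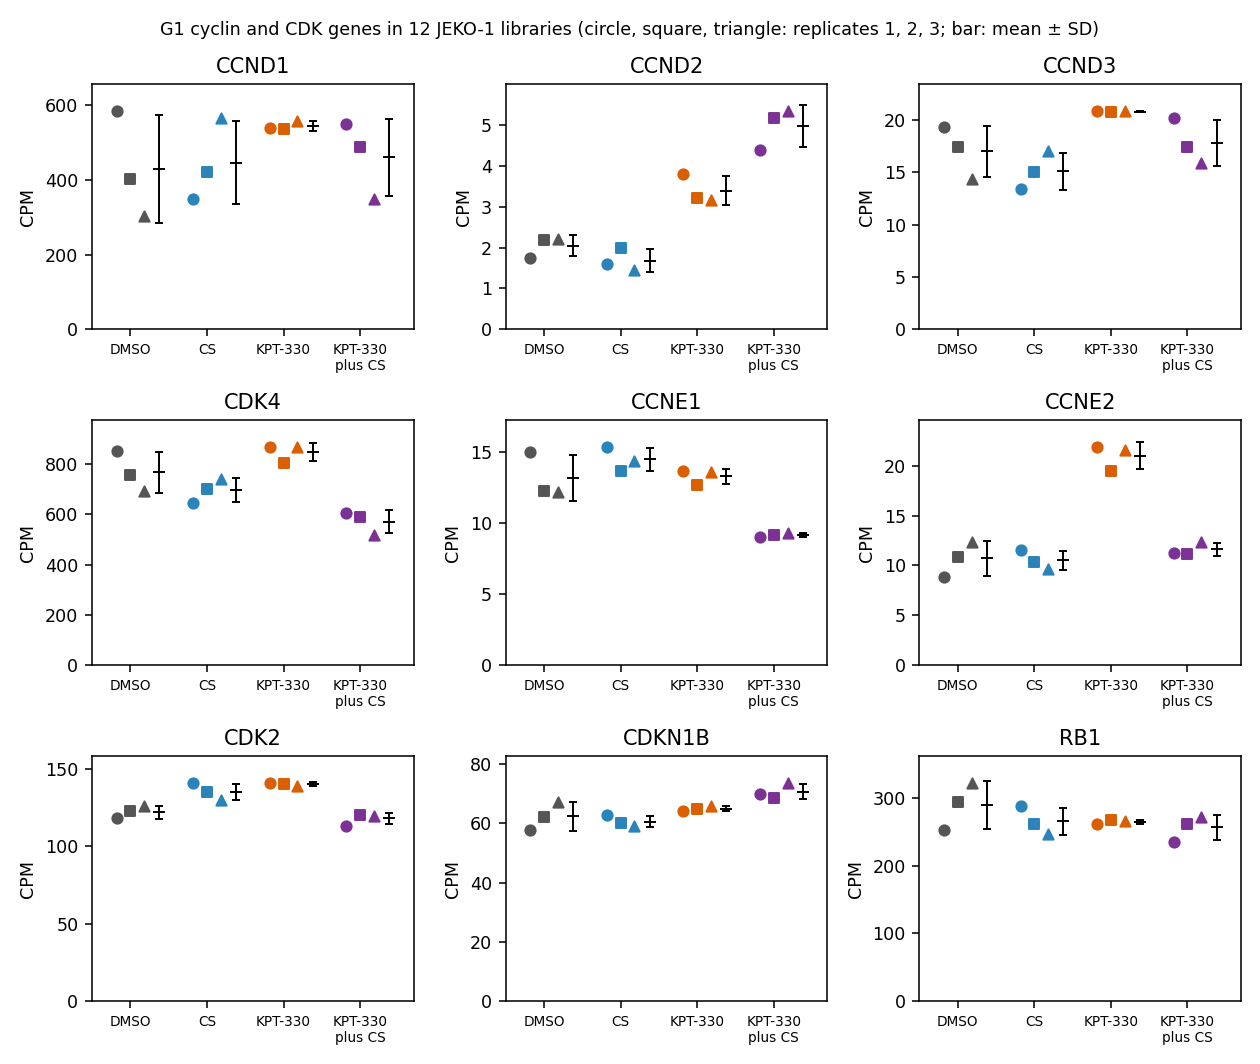
Level of the 9 tested genes in each of the 12 libraries, in CPM on axes that start at 0. Circles, squares and triangles are replicates 1, 2 and 3, and bars give the mean ± SD of 3 libraries. CCND1 ran from 302 to 585 CPM within DMSO alone, while CCNE2 was between 19.5 and 21.9 CPM in the KPT-330 libraries and at most 12.3 CPM in all others.

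CCND1 (ENSG00000110092, chr11:69641087-69654474 in hg38, plus strand), the translocated driver of mantle cell lymphoma, did not pass the test in any of the 7 comparisons. Its level was 585, 401 and 302 CPM in the DMSO libraries. The CS libraries had 349.8, 421 and 566 CPM, and the KPT-330 libraries 539, 535 and 558 CPM. The combination libraries had 549, 487 and 348 CPM. The 3 KPT-330 libraries were alike, while each of the other 3 groups held both high and low libraries, so every group overlapped the DMSO range. The mean was 429 ± 144 CPM in DMSO and 544 ± 12.2 CPM with KPT-330 (SD, n = 3), a log2 fold change of 0.34 ± 0.22 (SE) with an adjusted p of 0.220 by edgeR's quasi-likelihood test. For CS against DMSO the log2 fold change was 0.05 ± 0.22 (adjusted p = 0.929), and for the combination against DMSO it was 0.10 ± 0.22 (adjusted p = 0.720). DMSO replicate 1 decided the call with KPT-330. Without that library the log2 fold change was 0.63 and the adjusted p 0.0446. The deposited counts are of mRNA, so nothing here measures cyclin D1 protein.

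In 3 of the 4 groups CCND1 varied more between replicates than nearly all genes of at least 100 CPM. Its coefficient of variation (SD over mean) was 33.5% in DMSO, 24.7% in CS and 22.3% with the combination, but 2.25% with KPT-330. Among the 2177 tested genes with a mean of at least 100 CPM, the median coefficient of variation was 8.51% in DMSO, 5.03% in CS, 5.55% with the combination and 1.75% with KPT-330. Only 1.06% of those genes varied more than CCND1 in DMSO, 1.29% in CS and 1.24% with the combination, against 34.0% with KPT-330. The highest library exceeded the lowest by 1.94-fold in DMSO, 1.62-fold in CS, 1.58-fold with the combination and 1.04-fold with KPT-330. These ratios rest on 12437 to 32955 CCND1 reads per library, so counting error is a small part of them. The spread with KPT-330 itself rests on replicate 3, without which the coefficient of variation was 0.511%. In DMSO it was 20.0% without replicate 1, in CS 13.1% without replicate 3 and with the combination 8.51% without replicate 3.

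Within each of the 4 groups, the order of the CCND1 levels was the order of the libraries' GC slopes. In DMSO the library with the highest slope held 0.96 more CCND1, in log2 units, than the library with the lowest. The same difference was 0.69 in CS and 0.66 with the combination, and 0.06 with KPT-330, whose slopes were close together. The longest CCND1 transcript has a GC content of 50.3%, against a median of 47.7% over tested genes. After a correction of each library for its GC trend, the differences were 0.90 in DMSO, 0.62 in CS and 0.64 with the combination, and the coefficients of variation were 31.8%, 22.1% and 21.8%. The spread of CCND1 was thus nearly as large after the correction as before it. CCND3, with a GC content of 56.2%, went from a difference of 0.42 in DMSO to 0.02 after the same correction. RB1 (37.1% GC) went from -0.36 to -0.09, and CCNE2 (36.9% GC) from -0.47 to -0.20. The part of the GC slope in the spread of CCND1 beyond this correction was not tested.

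**Figure D2:**
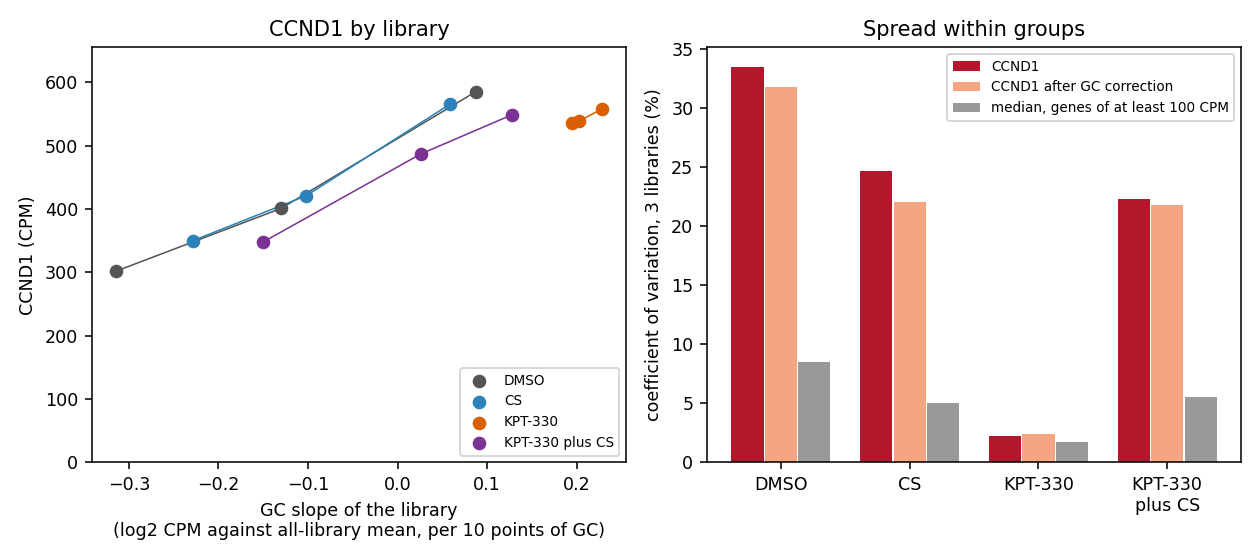
Left, CCND1 in CPM against the GC slope of each library, with lines joining the 3 libraries of a group. Right, coefficient of variation of CCND1 in each group before and after GC correction, beside the median over 2177 genes of at least 100 CPM. Within each group CCND1 was highest in the library with the highest slope, and its coefficient of variation was 33.5% in DMSO and 2.25% with KPT-330.

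Among the genes whose pattern over the 12 libraries was most like that of CCND1 were RPS21, CUEDC2, RPLP2 and ZNF646. Likeness was the root mean square difference of log2 CPM after each gene was centred on its own mean, and it was 0.051 for RPS21, 0.056 for CUEDC2, 0.058 for RPLP2 and 0.070 for ZNF646, against a median of 0.403 over 9989 genes of at least 5 CPM. RPS21 and RPLP2 encode ribosomal proteins, a family with near-identical pseudogene copies whose reads may be split between copies. The GC contents of these 4 genes were 55.4 to 59.8%. They share the 12 libraries, and with them depth and GC slope, with CCND1.

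Of 11 genes around CCND1 at 11q13, 6 had enough reads to be tested. With KPT-330 2 of them were higher and 1 lower than in DMSO, and with the combination 1 was higher and 5 lower. With KPT-330 48.5% of all tested genes were called, 24.7% higher and 23.8% lower, so the 3 of 6 were near the background, and with the combination 55.5% were called, 29.3% higher and 26.2% lower. The lower count with the combination was 1 with library size alone or with the compared groups fitted alone, and 3 with a filter of 1 CPM and without DMSO replicate 1, DMSO replicate 2 or combination replicate 3, and the higher count with KPT-330 was 1 without DMSO replicate 2 or 3 or KPT-330 replicate 1 or 3. With KPT-330 the counts were 1 higher and 2 lower after GC correction and 2 and 0 with a filter of 1 CPM. ORAOV1, which lies on the opposite strand, shares 497 exon bases with CCND1 and had 15566 reads over the 12 libraries against 278361 for CCND1. Its mean was 28.4 CPM in DMSO and 26.7 CPM with KPT-330, a log2 fold change of -0.09 ± 0.08 (adjusted p = 0.364). The library kit does not mark strand, so reads in the shared bases cannot be told apart. CTTN, which encodes the actin-binding protein cortactin, lies 743.9 kb to the telomeric side and was nearly silent in DMSO, with 13 reads over 3 libraries. It had 150 reads with KPT-330 and 389 with the combination, ratios to DMSO of 9.42 (95% interval 5.35 to 18.1) and 27.2 (15.7 to 51.6) by exact binomial intervals, which cover counting error only. By edgeR's quasi-likelihood test, CTTN rose with KPT-330 by 3.20 ± 0.39 in log2 units (adjusted p = 2.19e-05) and with the combination by 4.74 ± 0.35 (adjusted p = 1.13e-07). CTTN had enough reads to be tested only through the KPT-330 and combination libraries, where it was high. Its DMSO level was 0.0616 to 0.171 CPM, so this test could hardly show anything but a rise. MYEOV, 273.4 kb to the centromeric side, had 80 reads in DMSO, 14 with KPT-330 and 2 with the combination, so the level in DMSO was 7.0 times that with KPT-330 (95% interval 3.94 to 13.4) and 44 times that with the combination (11.8 to 369). MYEOV fell with both by edgeR's test (adjusted p = 0.000116 and 5.57e-06), the opposite direction to CTTN, and both genes had far fewer reads than CCND1. MYEOV had enough reads to be tested only through the DMSO and CS libraries, where it was high, so its test could hardly show anything but a fall. CTTN and MYEOV are among the 6 tested genes counted above. FGF19, FGF4, FGF3 and ANO1 had no read in any library.

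CCND2 (ENSG00000118971, chr12:4273772-4305350), a D-type cyclin of normal B cells, rose with KPT-330 and rose further with the combination. Its levels were 1.75, 2.18 and 2.21 CPM in DMSO and 1.59, 2.00 and 1.46 CPM in CS. They were 3.81, 3.21 and 3.17 CPM with KPT-330 and 4.39, 5.17 and 5.35 CPM with the combination. Neither the KPT-330 nor the combination libraries overlapped DMSO or each other, while CS overlapped DMSO. Against DMSO the log2 fold change was 0.74 ± 0.15 with KPT-330 (adjusted p = 0.00160) and 1.29 ± 0.15 with the combination (adjusted p = 9.92e-06). The combination exceeded KPT-330 by 0.55 ± 0.15 (adjusted p = 0.00966) and CS by 1.56 ± 0.15 (adjusted p = 2.66e-06). These calls held under every alternative run, including each library left out. CS alone gave -0.28 ± 0.16 (adjusted p = 0.349). The values rest on 69 to 303 reads per library, the fewest of the tested genes.

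CCND3 (ENSG00000112576, chr6:41934933-42050357), the other D-type cyclin of B cells, had 19.3, 17.4 and 14.4 CPM in DMSO and 20.9, 20.8 and 20.9 CPM with KPT-330. It had 13.4, 15.0 and 17.0 CPM in CS and 20.2, 17.4 and 15.9 CPM with the combination. All KPT-330 libraries lay above all DMSO and all CS libraries. For KPT-330 against DMSO the log2 fold change of 0.29 ± 0.12 missed the threshold (adjusted p = 0.0588), and it passed without DMSO replicate 1, at 0.39 (adjusted p = 0.0162). It also passed when scaled by library size alone, at 0.45, and with no filter or a filter of 1 CPM, while after GC correction it was 0.03 (adjusted p = 0.718). CS was lower than KPT-330 by 0.46 ± 0.12 (adjusted p = 0.00709), a difference that passed under every alternative and that was -0.22 after GC correction.

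Within the D-type cyclins, CCND1 made up nearly all of the mRNA. Its share of the summed CPM per kb of CCND1, CCND2 and CCND3 was 96.3 ± 0.722% in DMSO, 96.9 ± 0.403% in CS, 96.5 ± 0.0964% with KPT-330 and 96.1 ± 0.631% with the combination (SD, n = 3). The share of CCND2 was 0.340 ± 0.139% in DMSO and 0.734 ± 0.237% with the combination, and these libraries did not overlap. In 18 comparisons of shares between groups the exact permutation test (two-sided) gave a smallest adjusted p of 0.30, and 3 libraries against 3 cannot give a raw p under 0.10. CCND2 thus remained under 1% of the D-type cyclin mRNA on average in all groups.

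CDK4 (ENSG00000135446, chr12:57747727-57756013, minus strand), the kinase partner of the D-type cyclins, fell with the combination. Its levels were 851, 754 and 691 CPM in DMSO and 603, 589 and 518 CPM with the combination. The KPT-330 libraries had 866, 804 and 868 CPM and the CS libraries 645, 701 and 739 CPM. The combination was below every other library, while KPT-330 and CS both overlapped DMSO. Against DMSO the combination changed CDK4 by -0.43 ± 0.08 in log2 units (adjusted p = 0.000648), and against KPT-330 by -0.57 ± 0.08 (adjusted p = 0.000167). Against CS the change was -0.29 ± 0.08 (adjusted p = 0.0114), which was -0.16 (adjusted p = 0.174) when scaled by library size alone. CDK4 shares 1369 exon bases with TSPAN31 on the opposite strand, a tetraspanin gene with 19527 reads against 422898 for CDK4. TSPAN31 rose from 19.4 to 59.3 CPM with the combination, by 1.61 ± 0.06 in log2 units (adjusted p = 1.30e-10), the opposite direction to CDK4. The part of reads in the shared bases in these changes was not tested. CDK6 (ENSG00000105810, chr7:92604921-92836594), the other partner, had no read in 11 libraries and 2 reads in combination replicate 3. In the 3 groups with no read, a floor of 3 reads per group allows a level of up to 0.0214 CPM in DMSO, 0.0195 CPM in CS and 0.0195 CPM with KPT-330, counting error only.

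CCNE1 (ENSG00000105173, chr19:29811898-29824308) fell with the combination and did not pass the test with either drug alone. It had 15.0, 12.3 and 12.2 CPM in DMSO, 15.4, 13.7 and 14.4 CPM in CS, and 13.7, 12.7 and 13.6 CPM with KPT-330. With the combination it had 9.05, 9.17 and 9.33 CPM, below all 9 other libraries. The log2 fold change was -0.52 ± 0.09 against DMSO (adjusted p = 0.000339), -0.54 ± 0.09 against KPT-330 (adjusted p = 0.000607) and -0.66 ± 0.09 against CS (adjusted p = 6.36e-05), and all of these held under every alternative.

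CDK4 and CCNE1, which both fell with the combination, and CDKN1B, which was higher there, have an entry among the RefSeq promoters of GRCh38.p14, as do CCND3, CDK6 and RB1. The 250 bases before an annotated start are shown for CDK4, CCNE1 and CDKN1B. The higher level of CDKN1B against DMSO lost its call in 5 of 16 alternatives. Capitals mark the letters GGGCGG, the core of a GC box, on either strand (CCGCCC where it lies on the other strand). The windows are chr12:57752311-57752560 (minus strand) for CDK4, chr19:29811741-29811990 (plus strand) for CCNE1 and chr12:12717118-12717367 (plus strand) for CDKN1B, each written 5′ to 3′ on the gene's strand.
CDK4: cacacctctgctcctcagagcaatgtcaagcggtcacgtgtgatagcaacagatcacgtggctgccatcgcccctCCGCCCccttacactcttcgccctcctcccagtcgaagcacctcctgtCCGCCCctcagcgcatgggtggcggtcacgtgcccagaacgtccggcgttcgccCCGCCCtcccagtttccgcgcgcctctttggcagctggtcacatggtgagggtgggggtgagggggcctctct
CCNE1: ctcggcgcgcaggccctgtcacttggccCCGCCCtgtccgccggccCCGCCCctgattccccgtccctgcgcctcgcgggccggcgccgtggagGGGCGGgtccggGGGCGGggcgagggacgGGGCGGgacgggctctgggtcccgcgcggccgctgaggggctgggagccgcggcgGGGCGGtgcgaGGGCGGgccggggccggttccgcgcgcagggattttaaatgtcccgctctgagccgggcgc
CDKN1B: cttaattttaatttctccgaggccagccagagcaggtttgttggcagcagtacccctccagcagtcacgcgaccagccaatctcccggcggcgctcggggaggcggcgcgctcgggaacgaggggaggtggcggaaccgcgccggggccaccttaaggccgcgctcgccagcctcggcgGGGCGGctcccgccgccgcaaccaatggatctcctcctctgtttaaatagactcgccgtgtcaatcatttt
GGGCGG was found 3 times in the CDK4 window, 7 times in CCNE1 and 1 time in CDKN1B, and 42.6% of 35116 promoter windows held it at least once. None of the 3 windows held TTTCGCGC, TTTGGCGC, TTTCCCGC or TTTGCCGC on either strand, forms of the E2F motif found in 2.79% of promoter windows. Of the other motifs searched on both strands, CCAAT was found 2 times in CDKN1B and in neither CDK4 nor CCNE1 (32% of promoter windows hold it), and TTTGAA or TTCGAA (14.3%), TGACGTCA or TGACGTAA (2%) and the NF-kB motif (2.64%) were in none of the 3 windows. In the other members with an entry, GGGCGG was found 5, 2 and 0 times in the CCND3 windows. It was found 3 and 0 times in the CDK6 windows and 0 times in RB1. A match is a string of letters and was not tested for binding. A relation of these counts to the changes in level was not tested either.

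CCNE2 (ENSG00000175305, chr8:94879770-94896678, minus strand), the other E-type cyclin, rose 1.97-fold with KPT-330 alone and did not pass against DMSO with the combination. It had 8.89, 10.8 and 12.3 CPM in DMSO, 11.5, 10.3 and 9.64 CPM in CS, and 11.2, 11.1 and 12.3 CPM with the combination. With KPT-330 it had 21.9, 19.5 and 21.6 CPM, above all 9 other libraries. KPT-330 exceeded DMSO by 0.98 ± 0.11 in log2 units (adjusted p = 1.45e-05). The combination was lower than KPT-330 by 0.86 ± 0.11 (adjusted p = 7.63e-05), and against DMSO it gave 0.12 ± 0.11 (adjusted p = 0.408). Both calls held under every alternative, and scaled by library size alone the combination passed against DMSO too, at 0.30 (adjusted p = 0.0248). CCNE2 shares 1629 exon bases with INTS8 on the opposite strand, which had 36659 reads against 7984 for CCNE2. INTS8 fell with KPT-330 by 0.41 ± 0.08 in log2 units (adjusted p = 0.000921). NDUFAF6, whose span also overlaps, rose by 0.44 ± 0.08 (adjusted p = 0.000810). The part of reads in the shared bases in the change of CCNE2 was not tested.

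The pattern most like that of CCNE2 belonged to LTBP1 (0.105), TMEFF1 (0.128) and SPATS2L (0.129), on the root mean square difference defined above, against a median of 0.493 over 9989 genes. LTBP1 averaged 25.2 CPM in DMSO, 52.4 CPM with KPT-330 and 30.4 CPM with the combination. The ratio of CCNE2 to CCNE1, each per kilobase, was 0.468 in DMSO, 0.420 in CS, 0.913 with KPT-330 and 0.729 with the combination. In log2 units these were -1.10 ± 0.40, -1.25 ± 0.10, -0.13 ± 0.03 and -0.46 ± 0.06 (SD, n = 3). The libraries were apart in 5 of 6 pairs of groups, with the exact permutation test at its smallest possible p of 0.10 (adjusted over the 6 pairs, 0.12), and overlapped between CS and DMSO.

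CDK2 (ENSG00000123374, chr12:55966769-55972784), the kinase partner of the E-type cyclins, had 118, 123 and 126 CPM in DMSO, 141, 135 and 130.1 CPM in CS, and 141, 140.3 and 139 CPM with KPT-330. With the combination it had 113, 119.9 and 119.6 CPM. Both single drugs lay above all DMSO libraries, and the combination overlapped DMSO. The changes were small. KPT-330 raised CDK2 by 0.20 ± 0.05 in log2 units (adjusted p = 0.00504), a call that was lost with DESeq2 at 0.17 (adjusted p = 0.0557) and after GC correction at 0.12 (adjusted p = 0.132). CS gave 0.15 ± 0.05, which passed only before adjustment (adjusted p = 0.0834), and it passed without DMSO replicate 3, at 0.19 (adjusted p = 0.0401). The combination was lower than KPT-330 by 0.25 ± 0.05 (adjusted p = 0.00146) under every alternative.

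CDKN1B (ENSG00000111276, chr12:12715058-12722371), which encodes the CDK2 inhibitor p27, had 57.6, 62.0 and 67.2 CPM in DMSO and 69.9, 68.6 and 73.7 CPM with the combination. It had 62.7, 60.0 and 59 CPM in CS and 64.3, 64.7 and 65.9 CPM with KPT-330. The combination lay above all other libraries. It exceeded DMSO by 0.18 ± 0.06 in log2 units (adjusted p = 0.0184). This call was lost without DMSO replicate 1 at 0.13, without DMSO replicate 2 at 0.18 and without combination replicate 3 at 0.15, and also with DESeq2 at 0.15 (adjusted p = 0.129). KPT-330 against DMSO gave 0.06 and did not pass, but it passed after GC correction at 0.18 (adjusted p = 0.000123) and with library size alone at 0.22 (adjusted p = 0.00194). CS against KPT-330 gave -0.10 and did not pass. It passed at -0.20 both after GC correction (adjusted p = 5.33e-05) and with library size alone (adjusted p = 0.00474). RB1 (ENSG00000139687, chr13:48303751-48481986), the substrate of these kinases, had 252, 293 and 322 CPM in DMSO, 287, 260.5 and 247 CPM in CS, 261, 267 and 265 CPM with KPT-330 and 235, 261 and 271 CPM with the combination. All groups overlapped and RB1 passed in no comparison. After GC correction it passed in 4, at -0.08 for CS against DMSO (adjusted p = 0.0498), -0.13 for the combination against DMSO (adjusted p = 0.000742), -0.14 for CS against KPT-330 (adjusted p = 0.000798) and -0.19 for the combination against KPT-330 (adjusted p = 4.2e-05). Without DMSO replicate 1 it fell below DMSO by 0.22 with KPT-330 (adjusted p = 0.0184) and by 0.27 with the combination (adjusted p = 0.00509).

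**Figure D3:**
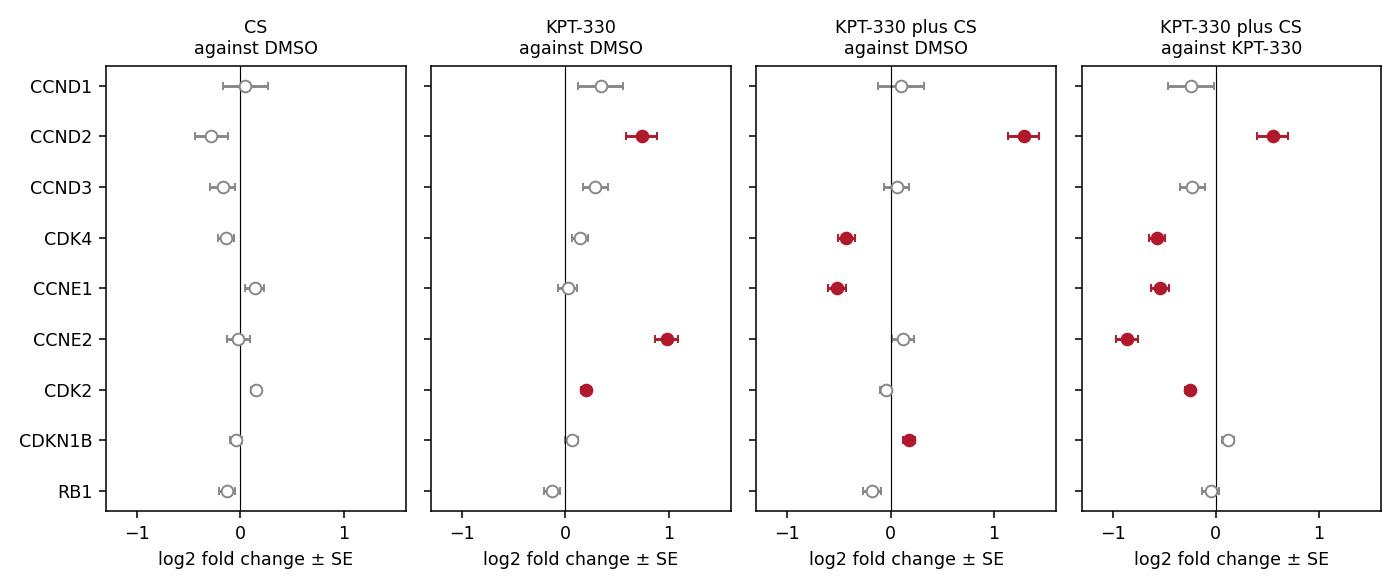
Log2 fold change ± SE of the 9 tested genes in 4 comparisons. Filled red points passed an adjusted p of 0.05, and open grey points did not. CCND2 is to the right with KPT-330 and with the combination against DMSO, at 0.74 and 1.29, and CCNE2 passed with KPT-330 alone, at 0.98.

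Counted together, 3 of the 9 tested genes were higher and none lower with KPT-330 against DMSO, where 48.5% of all tested genes passed (24.7% higher, 23.8% lower), so this share was not above the background. Their median log2 fold change was 0.20, against 0.04 over all tested genes. Without DMSO replicate 1 the count was 7 of 9, with 6 higher and 1 lower. For CS against DMSO none passed with edgeR, where 8.88% of all genes did (3.76% higher, 5.13% lower), and 1 had an unadjusted p under 0.05. DESeq2 also called none. For the combination against DMSO 2 were higher and 2 lower, where 55.5% of all genes passed (29.3% higher, 26.2% lower). Against KPT-330 alone the combination had 1 higher and 4 lower, where 37.6% passed (19.7% higher, 17.9% lower). Against CS it had 2 higher and 3 lower, where 47.8% passed (26.1% higher, 21.7% lower). CS against KPT-330 had 4 lower, CCND2, CCND3, CDK4 and CCNE2, where 42.8% passed (20.2% higher, 22.6% lower). The CDK4 value of -0.28 ± 0.08 in that comparison (adjusted p = 0.0141) lost its call without CS replicate 1 at -0.23, without KPT-330 replicate 1 at -0.27 and without KPT-330 replicate 3 at -0.27. None of the 9 passed the study's stricter rule, which also asks for a log2 fold change beyond 2 in either direction. That rule was met by 3.02% of all tested genes for KPT-330, 0.144% for CS and 4.36% for the combination against DMSO, and by 2.67% for CS against KPT-330, 0.853% and 3% for the combination against KPT-330 and CS, and 0.761% for the interaction. These comparisons share libraries and are not independent of each other.

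The interaction term asks whether the change with CS differed in cells that also received KPT-330. It passed for 5 of the 9 tested genes, where 14.7% of all tested genes passed (8.04% higher, 6.62% lower). In log2 units it was -0.84 ± 0.16 for CCNE2 (adjusted p = 0.00418), -0.67 ± 0.13 for CCNE1 (adjusted p = 0.00443), -0.40 ± 0.07 for CDK2 (adjusted p = 0.00245), -0.43 ± 0.12 for CDK4 (adjusted p = 0.0264) and 0.83 ± 0.22 for CCND2 (adjusted p = 0.0235). In the 4 genes with a negative term, the change from KPT-330 to the combination lay below the change from DMSO to CS. The terms for CCNE2, CCNE1 and CDK2 held with each library left out. The term for CDK4 was lost without DMSO replicate 2 (-0.42), CS replicates 2 (-0.43) or 3 (-0.39), KPT-330 replicates 1 (-0.42) or 3 (-0.41) and combination replicate 3 (-0.37). The term for CCND2 was lost without DMSO replicate 2 (0.78), CS replicate 3 (0.72), KPT-330 replicates 2 (0.79) or 3 (0.78) and combination replicates 2 (0.80) or 3 (0.77). With the libraries of lowest GC slope left out, the CCND2 term was 0.67 and was lost too (adjusted p = 0.112 by the same test). For CCND1 the term was -0.29 ± 0.31 (adjusted p = 0.570).

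The G1/S targets of E2F, which act downstream of these kinases, fell together with the combination. The list and its genes were taken with earlier results of these data known. All 16 genes of that list were lower than in DMSO, where 26.2% of all tested genes were lower, with a median log2 fold change of -0.77 against 0.04 over all tested genes. RRM2, a subunit of ribonucleotide reductase, fell from 420.1 to 129.9 CPM, by 1.69 ± 0.07 in log2 units. CCNA2, cyclin A2, fell by 1.72 ± 0.09, TYMS, thymidylate synthase, by 1.2 ± 0.05, and PCNA, the DNA polymerase clamp, by 1.00 ± 0.05. All 16 were also lower than with KPT-330 alone, where 17.9% of all tested genes were lower, with a median of -0.76 against 0 over all genes. With KPT-330 alone the list was mixed, with 2 higher, 5 lower and a median of 0.04, equal to that of all tested genes, and the 7 of 16 called were near the 48.5% of all tested genes (24.7% higher, 23.8% lower). RRM2 fell there by 0.38 ± 0.07 and MCM6, a helicase subunit, by 0.37 ± 0.07. That split was 2 higher and 10 lower after GC correction, 5 and 4 with library size alone and 4 and 6 without DMSO replicate 1, and 1 was higher with DESeq2, with no filter, and without DMSO replicate 2 or any 1 KPT-330 library. With 1 library left out, 11 to 16 of the 16 were lower with the combination against DMSO, and 16 against KPT-330. CCNA2 shares 254 exon bases with EXOSC9 on the opposite strand. TYMS (81564 reads) shares 967 with ENOSF1 (19813 reads), also on the opposite strand. Reads in these shared bases cannot be told apart.

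The cyclins and kinase of S and M phase fell with KPT-330 and fell further with the combination. All 5 of CCNA2, CCNB1, CCNB2, CCNF and CDK1 were lower in both, where 23.8% and 26.2% of all tested genes were lower. Their median log2 fold changes were -0.93 and -1.61, against 0.04 over all tested genes in both. CCNB1, the mitotic cyclin B1, went from 375 CPM in DMSO to 309 in CS, 183 with KPT-330 and 119 with the combination, with log2 fold changes of -0.28 ± 0.04, -1.03 ± 0.04 and -1.65 ± 0.04. CDK1, the mitotic kinase, changed by -0.84 ± 0.08 with KPT-330 and -1.61 ± 0.08 with the combination, and CCNB2 by -0.95 ± 0.06 and -1.47 ± 0.06. With each library left out, 4 or 5 of the 5 were lower with KPT-330 and 5 with the combination.

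Of the pocket proteins and E2F factors, 12 genes with 13 identifiers because TFDP2 has 2, 3 identifiers were higher and 5 lower with KPT-330, and 4 were higher and 8 lower with the combination. Over all tested genes 48.5% were called with KPT-330 and 55.5% with the combination, and the medians of the list were -0.05 and -0.61 against 0.04 over all tested genes in both. TFDP2, a dimerization partner of E2F, rose under both identifiers, by 1.78 ± 0.06 and 1.51 ± 0.07 with KPT-330 and by 1.71 ± 0.06 and 1.41 ± 0.07 with the combination. The 2 identifiers may split the reads of 1 gene. RBL1, the pocket protein p107, fell by 0.58 ± 0.07 with KPT-330, and E2F6, a repressor, by 0.59 ± 0.06. RBL2, the pocket protein p130, rose by 0.36 ± 0.07 with the combination. E2F8 and E2F2 fell with the combination by 1.35 ± 0.06 and 1.29 ± 0.07. E2F1 rose with KPT-330 by 0.55 ± 0.13 (adjusted p = 0.00289), a difference that was 0.00 after GC correction (adjusted p = 0.987), and was lower with the combination than with KPT-330 by 0.97 ± 0.13. The higher count with KPT-330 was 6 with library size alone, where 3 were lower, 6 without DMSO replicate 3, and 5 after GC correction or with the compared groups fitted alone.

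Of 6 genes of the CDK-activating kinase and of CDK phosphorylation, 4 were lower and none higher both with KPT-330 and with the combination, where 23.8% and 26.2% of all tested genes were lower. Their median log2 fold changes were -0.25 and -0.64, against 0.04 over all tested genes in both. With library size alone 1 was higher and 2 lower with KPT-330 and 1 higher and 3 lower with the combination. With KPT-330 1 was also higher after GC correction, with a filter of 1 CPM, with the compared groups fitted alone, and without DMSO replicate 1 or 3. CDC25A, the phosphatase that activates CDK2, fell by 0.35 ± 0.05 with CS, by 0.49 ± 0.05 with KPT-330 and by 1.33 ± 0.05 with the combination. WEE1, an inhibitory kinase, fell by 0.54 ± 0.08 with KPT-330 and by 1.19 ± 0.08 with the combination, where the related kinase PKMYT1 fell by 1.07 ± 0.22. Of the 6 other CDK inhibitor genes, 2 were higher with KPT-330, CDKN1C and CDKN2A, and 2 were higher and 1 lower with the combination, where 48.5% and 55.5% of all tested genes were called. CDKN1C was low, at 0.248 CPM in DMSO and 0.782 CPM with KPT-330, and lost its call without DMSO replicate 2 (1.58) or 3 (1.16) and without KPT-330 replicate 3 (1.30). CDKN2A, the p16 gene, gave 0.25 ± 0.08, which was -0.14 (adjusted p = 0.274) after GC correction, and lost its call without DMSO replicate 2 (0.23), KPT-330 replicate 2 (0.21) or KPT-330 replicate 3 (0.23). CDKN2D, the p19 INK4 gene, fell with the combination by 0.85 ± 0.20 (adjusted p = 0.00294). CDKN1A, the p21 gene, rose with CS by 0.63 ± 0.14 (adjusted p = 0.0129), a call lost without DMSO replicate 2 (0.63) or CS replicate 2 (0.60). The higher count with KPT-330 was 0 without DMSO replicate 2 or KPT-330 replicate 3, 1 without DMSO replicate 3 or KPT-330 replicate 2 and 3 without DMSO replicate 1. It was 1 with a filter of 1 CPM and 1 after GC correction, where 2 were lower, and with DESeq2 1 was lower. With the combination the higher count was 1 with no filter, a filter of 1 CPM, DESeq2, GC correction or the compared groups fitted alone, and 4 with library size alone. It was 4 without DMSO replicate 1, 1 without DMSO replicate 2 or 3 or combination replicate 1, and 0 without combination replicate 2. CDKN2A shares 593 exon bases with CDKN2B-AS1 on the opposite strand. PKMYT1 (6810 reads) shares 1228 with PAQR4 on the opposite strand, which had more reads (11722).

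Of 10 genes of the ubiquitin ligases that act on cyclins and p27, 6 were lower and none higher with the combination, and 5 were lower and 1 higher with KPT-330. The 6 of 10 called in each were near the background of 55.5% and 48.5% of all tested genes, and the medians were -0.35 and -0.15 against 0.04 over all tested genes. With KPT-330 the counts were 3 higher and 4 lower with library size alone, 2 and 5 with DESeq2 and 0 and 4 with no filter. With 1 library left out the lower counts were 5 to 7 and 4 to 5, and the higher count with KPT-330 was 2 without DMSO replicate 1 and 0 without any 1 of the other libraries compared. RBX1, the RING subunit of cullin ligases, fell by 0.38 ± 0.04 with KPT-330 and by 0.73 ± 0.04 with the combination. SKP1, the adaptor, fell by 0.58 ± 0.07 and 0.50 ± 0.07, and FBXW7, the F-box protein that recognises cyclin E, by 0.56 ± 0.10 and 0.51 ± 0.10. CUL1, the scaffold, fell by 0.39 ± 0.05 with the combination. CKS1B, the cofactor for p27 turnover, was lower with the combination than with KPT-330 by 0.35 ± 0.06. SKP1 (160499 reads) shares 1137 exon bases with CTD-2410N18.5 on the same strand (55852 reads).

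Of 4 genes of cyclin D1 mRNA export and cyclin D1 phosphorylation, 1 was higher and 3 were lower both with KPT-330 and with the combination against DMSO, where 48.5% and 55.5% of all tested genes were called. With the combination 2 were lower with library size alone and with a filter of 1 CPM. EIF4E, the cap-binding protein, fell from 126 to 75.7 CPM with KPT-330, by 0.73 ± 0.09 in log2 units (adjusted p = 2.10e-05), and to 63.8 CPM with the combination, by 0.98 ± 0.09 (adjusted p = 8.24e-07). LRPPRC, a cofactor of that export, fell with the combination by 0.68 ± 0.08 (adjusted p = 6.70e-06), and its change of -0.26 ± 0.08 with KPT-330 was lost without DMSO replicate 3, at -0.17. GSK3B, the kinase that phosphorylates cyclin D1, fell with KPT-330 by 0.60 ± 0.08 (adjusted p = 3.19e-05) and was higher with the combination than with KPT-330 by 0.40 ± 0.08 (adjusted p = 0.00125). XPO1 rose with the combination by 0.86 ± 0.07 (adjusted p = 5.19e-07) and did not pass with CS, at 0.07 ± 0.07 (adjusted p = 0.631).

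**Figure D4:**
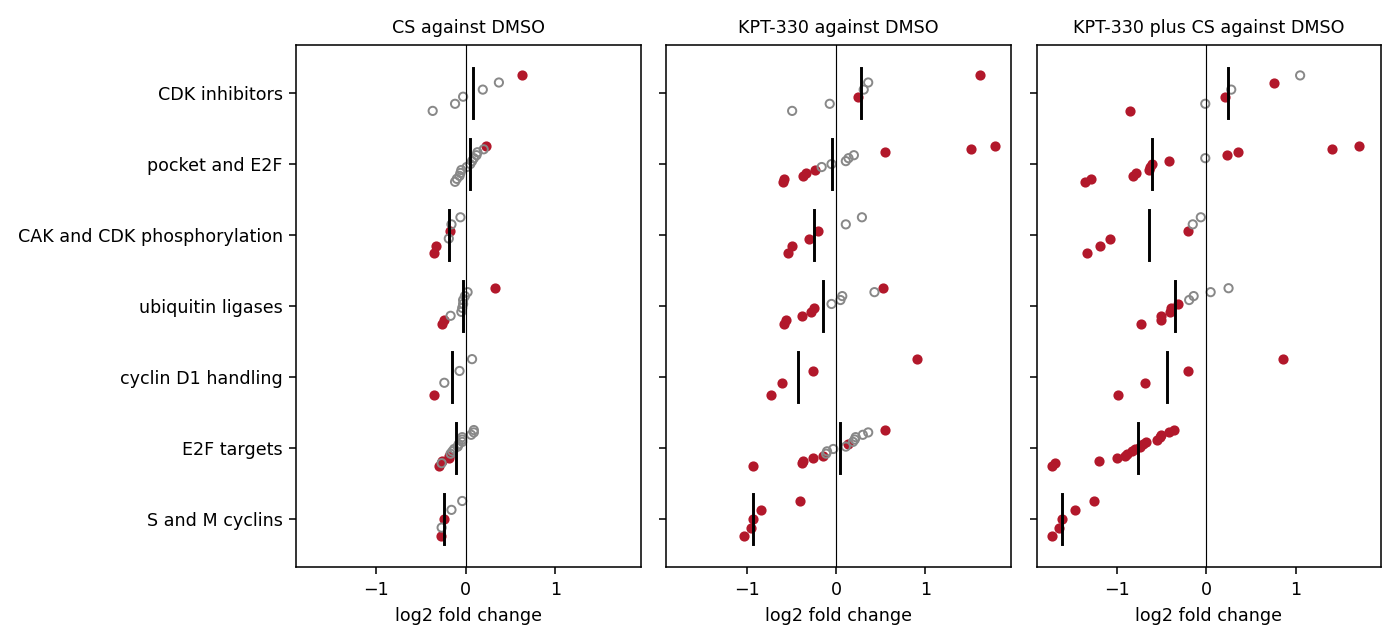
Log2 fold change of each tested gene of the 7 pathway lists in the comparisons of CS, KPT-330 and the combination with DMSO. Filled red points passed an adjusted p of 0.05, open grey points did not, and the black bar is the list's median. The E2F targets lie around 0 with KPT-330, at a median of 0.04, and all to the left with the combination, at a median of -0.77.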

How the data were processed

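Gene counts were analysed from 12 JEKO-1 libraries in 4 groups of 3, assigned by the labels. The authors deposited whole-number read counts per gene, from reads aligned to hg38 with STAR and counted on Ensembl 78, per the series' design text and the submitters' processing notes. Libraries were made from poly(A) RNA with a TruSeq RNA kit, per the labels' protocols, which as background does not mark strand. The program that counted the reads is not given in the sources used here. RNA was extracted with a kit made for fixed tissue, per the labels' protocols.

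edgeR 4.0.16 under R 4.3.3 was used for the tests on these counts. Genes were filtered with filterByExpr by group and scaled by TMM, and 1 robust quasi-likelihood model (F-test, two-sided) covered all 12 libraries, which left 8 residual degrees of freedom. Adjusted p-values are Benjamini-Hochberg over 19460 tested genes in each of 7 comparisons, and a gene passed at 0.05 or less. SE is the log2 fold change divided by the root of F. CPM used TMM-scaled library sizes, except for the CDK6 floors, which used the total counts. GC content was that of the longest GENCODE transcript and was known for 97.0% of tested genes. The GC slope of a library is that of log2 CPM, less the gene's mean over the 12 libraries, on GC. The GC correction was a lowess fit per library (span 0.3). The test was checked on simulated data for KPT-330 against DMSO. It recovered 46.3% of genes changed 1.5-fold, 58.2% of those changed 2-fold and 90.9% of those changed 4-fold. It also called 7 unchanged genes. Far fewer genes were changed in the simulation than the 48.5% called for KPT-330 against DMSO. Its noise was drawn gene by gene, with no GC trend shared within a library. These rates thus need not hold for the real libraries. A gene that did not pass may still have changed. Alternatives were DESeq2 1.42.0, other scalings, filters and fits, a replicate block, and each library left out. Leaving out the libraries with the lowest GC slope was chosen after seeing the data. The members and lists were chosen with earlier results of these data known. All members were named in every comparison, from each list up to 4 genes that passed and up to 2 that did not, and 5 genes most like CCND1 and 3 most like CCNE2. Fewer were named from some lists, mostly those whose call held when 1 library was left out; this was decided after their values were seen. One of the genes most like CCND1 is not reported here. TSPAN31, INTS8 and NDUFAF6 were named for their overlap with a member.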

Additional observations from a re-analysis of the deposited data

Results flagged for a closer look

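Because each group had 3 libraries, no rule was applied here to flag a single library as standing apart within its group. Results with each library left out are given elsewhere in the text. In 5 of the 9 tested genes the change with CS differed between cells without and with KPT-330, by the interaction term of edgeR's quasi-likelihood test (Benjamini-Hochberg adjusted). The log2 difference was 0.83 for CCND2 (adjusted p = 0.0235), -0.43 for CDK4 (adjusted p = 0.0264), -0.67 for CCNE1 (adjusted p = 0.00443), -0.84 for CCNE2 (adjusted p = 0.00418) and -0.40 for CDK2 (adjusted p = 0.00245). Over all tested genes 14.7% passed. The call was lost in 7 of 21 alternatives for CCND2 and in 6 of 21 for CDK4, and it held throughout for CCNE1, CCNE2 and CDK2. The mitochondrial ribosomal RNA share was 2.52 to 2.75% in the combination libraries and at most 1.46% in all others, and its part in these differences was not tested.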

How the results depend on the processing

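Of the 9 tested genes, the number passing for KPT-330 against DMSO was 3, 6 when scaled by library size alone, and 3 to 7 with 1 library left out, the 7 without DMSO replicate 1. For CS against DMSO it was 0, 1 with a filter of 1 CPM in at least 3 libraries, 1 with library size alone, 3 after GC correction (CCND3, CDK4 and RB1, all lower) and 0 to 1 with 1 library left out. For CS against KPT-330 it was 4, 7 after GC correction and 3 to 4 with 1 library left out. For the interaction it was 5, and 3 to 5 with 1 library left out. Directions reversed for CDK2 with the combination against DMSO under library size alone (0.13), for RB1 in CS against KPT-330 after GC correction (-0.14) and for CDKN2A with KPT-330 against DMSO after GC correction (-0.14); sign changes where neither value passed are not counted. Without length scaling the CCND1 share was 95.6% in DMSO, 96.3% in CS, 95.7% with KPT-330 and 95.2% with the combination, and the log2 ratio of CCNE2 to CCNE1 was -0.31, -0.47, 0.66 and 0.33. With 1 library left out the CCND1 coefficient of variation ran from 20.0 to 45.3% in DMSO, 13.1 to 33.4% in CS, 0.511 to 2.96% with KPT-330 and 8.51 to 31.7% with the combination. Library size alone moved the median log2 fold change of all tested genes from 0.04 to 0.20 for KPT-330 and from 0.04 to 0.23 for the combination against DMSO. It moved the split of called genes from 4815 higher and 4631 lower to 6651 and 2905 for KPT-330 against DMSO, from 731 and 998 to 1365 and 714 for CS against DMSO, from 5711 and 5095 to 7606 and 3363 for the combination against DMSO, from 3925 and 4400 to 2926 and 5489 for CS against KPT-330 and from 5081 and 4216 to 6549 and 3029 for the combination against CS. Over all genes, CS against DMSO called 1729, but 4556 after GC correction, 249 when only those groups were fitted and 760 to 2580 with 1 library left out; the interaction called 2853, 5112 after GC correction and 1713 to 4711 with 1 library left out. Whether replicate numbers pair the libraries was not settled. Of 18 same-numbered pairs, 2 had deviations correlated above 0.1 (range -0.38 to 0.40). DMSO replicate 1 and CS replicate 3, each with the highest GC slope of its group, also had 0.40. This check thus cannot tell pairing from a shared GC slope. With the replicate block, 3 members passed for KPT-330 against DMSO, no member's call changed, 1 of 6 CDK inhibitors was higher with the combination, 1 of 16 E2F targets was higher with KPT-330, 2 of 4 genes of cyclin D1 export and phosphorylation were lower with the combination, and CS against DMSO called 1036 genes over all.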
